A study of Mus musculus with 4 samples.

Results

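The genes described here, Spic, Vcam1, Cd163, C1qa, C1qb, C1qc, Mrc1, Adgre1 and Cd5l, are 9 of the 53465 genes in the count table, and together they mark macrophages of the spleen. They were chosen by their counts in these same libraries, where macrophage markers had been lower with EGCG, so their EGCG differences are given as a description. The libraries were made from myeloid-derived suppressor cells (MDSCs) of BALB/c mice that carried the transplanted 4T1 mammary carcinoma. The cells were sorted from the spleen and kept for 6 h in control medium (2 libraries) or exposed for that time to 5 μg/mL EGCG, a catechin of green tea (2 libraries). Mice of both groups were male, 6 weeks old at the start, untreated in vivo and tumor-bearing, so that EGCG reached only cells in culture. The labels place the sort 21 days after the tumor injection and the study's methods place it earlier. Beads against Gr-1, an epitope of Ly-6G and Ly-6C, pulled out the cells, and macrophages were not a target of that sort. The sources used here do not say if libraries of 1 group stem from separate mice, so the spread between them may be technical.

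Red pulp macrophages take up aged red cells, break down their heme and return the iron, and the transcription factor Spi-C, encoded by Spic, is needed for their development. They carry VCAM-1, the adhesion ligand of the integrin VLA-4, and F4/80, the product of Adgre1. CD163 binds haptoglobin-hemoglobin complexes, the mannose receptor (Mrc1) takes up glycoproteins, and CD5L, also called AIM, is a secreted scavenger-receptor protein that lowers fatty acid synthesis. C1qa, C1qb and C1qc encode the chains of C1q, which starts the classical complement pathway and is made largely by tissue macrophages. Several of these genes are also used elsewhere, since VCAM-1 is made by endothelial and stromal cells, the mannose receptor by sinusoidal endothelium, and F4/80 by monocytes and eosinophils.

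The 4 libraries held between 17767318 and 18390385 counts. Markers of neutrophils (S100a8, Ly6g, Camp and 9 others), which make up most Gr-1+ spleen cells, summed to between 64218 and 84923 CPM (counts divided by the scaled library size). The 9 macrophage genes summed to between 316.2 and 409.7 CPM, so their RNA was a small part of each library. All 9 passed the filter on low counts. RNA was measured in bulk, so fewer macrophages and less RNA per macrophage cannot be told apart.

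The data bear on the promoters only in that these genes were picked for moving together, and the RefSeq promoter table (GRCm38.p6) held 6 of the 9 genes. The 250 bases before the RefSeq start were searched on both strands for GAGGAA, a core letter string of the PU.1 and Spi-C family. GAGGAA stood in 4 of the 6 windows, against 23.3% of 32841 promoters. Shown are Mrc1 and Cd5l, which had the largest differences between the groups, and, of the C1q genes, C1qb. All are written 5′ to 3′ along the gene, with capitals at the motif, which on the other strand reads TTCCTC.
Mrc1, chr2:14229164-14229413, plus strand: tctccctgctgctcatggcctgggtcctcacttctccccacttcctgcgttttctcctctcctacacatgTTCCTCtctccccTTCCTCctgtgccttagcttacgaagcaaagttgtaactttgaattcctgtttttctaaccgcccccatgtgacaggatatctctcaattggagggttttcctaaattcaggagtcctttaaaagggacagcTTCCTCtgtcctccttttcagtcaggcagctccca
Cd5l, chr3:87357631-87357880, plus strand: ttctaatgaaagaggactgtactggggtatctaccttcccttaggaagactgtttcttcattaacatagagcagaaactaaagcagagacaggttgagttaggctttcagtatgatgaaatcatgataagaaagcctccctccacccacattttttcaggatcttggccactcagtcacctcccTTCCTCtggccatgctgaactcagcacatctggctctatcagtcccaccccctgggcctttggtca
C1qb, chr4:136886201-136886450, minus strand: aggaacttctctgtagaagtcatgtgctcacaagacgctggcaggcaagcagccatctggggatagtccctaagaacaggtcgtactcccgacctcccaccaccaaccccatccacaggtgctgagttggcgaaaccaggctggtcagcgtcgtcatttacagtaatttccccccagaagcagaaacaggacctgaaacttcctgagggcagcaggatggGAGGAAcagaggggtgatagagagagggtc
RefSeq and GENCODE place some of these starts differently, and 3 of the 6 windows lie partly or wholly inside the GENCODE gene. These are the windows of Spic (all 250 bases), C1qc (151 bases) and Mrc1 (its last 22 bases). Mrc1 holds GAGGAA at 3 places, of which the nearest begins 35 bases before the RefSeq start and 13 before the GENCODE start. In Cd5l it begins 66 bases before either start. In C1qb it begins 30 bases before the RefSeq start and 43 before the GENCODE start, and in C1qc 193 and 42 bases. The windows of Cd163 and Spic held no match. A match of letters is not a binding site, and nothing was measured at these promoters.

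Levels between genes were compared as CPM per kilobase of exon. In the control libraries Adgre1 was highest at 65.5 ± 7.03 CPM per kilobase (SD, n = 2), followed by Cd5l at 23.5 ± 5.35 and C1qa at 18.7 ± 1.45. C1qb stood at 12.0 ± 2.19 and C1qc at 8.17 ± 0.443. Vcam1 (6.13 ± 0.357), Spic (4.35 ± 0.504) and Mrc1 (4.14 ± 0.803) came next, and Cd163 was lowest at 0.268 ± 0.0748. Taken over the 4 libraries, the ranges of Cd5l and C1qa overlapped, and so did those of C1qa and C1qb, of C1qc and Vcam1, and of Spic and Mrc1. Adgre1 and Cd163 stood clear of their neighbors in this order.

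Of the 9 genes, 8 were lower with EGCG and Cd163 was higher, with log2 fold changes from -0.63 (Mrc1) to 0.14 (Cd163) and a median of -0.27. Over all 14682 tested genes the median was 0.0031, and 49.4% were lower with EGCG. Both EGCG libraries lay below both control libraries for 5 of the 9 genes, against 21.2% of all tested genes. In the edgeR quasi-likelihood test, 0 of the 9 had a Benjamini-Hochberg adjusted p under 0.05, against 0.150% of tested genes, and 4 had an unadjusted p under 0.05, against 12.2%. In 7 of 10 alternative settings with all libraries 0 of the 9 were also called, among them upper-quartile scaling (0.0749% of tested genes) and the length correction (0.0545%). Cd5l and Mrc1 were called by DESeq2 (0.436% of tested genes) and by edgeR with library size as the only scaling (1.03%), and Mrc1 was called by the robust fit (0.429%). With a library left out, 0 to 4 were called, but 1 group then holds a single library, which is assumed to vary like those of the other group. There were 0 without EGCG replicate 1 (0.771% of tested genes), Adgre1 alone without control replicate 1 (0.504%), Cd5l and Mrc1 without control replicate 2 (2.31%), and C1qc, Cd5l, Mrc1 and Spic without EGCG replicate 2 (1.64%). Since these values chose the genes, nothing is read from these counts.

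**Figure D1:**
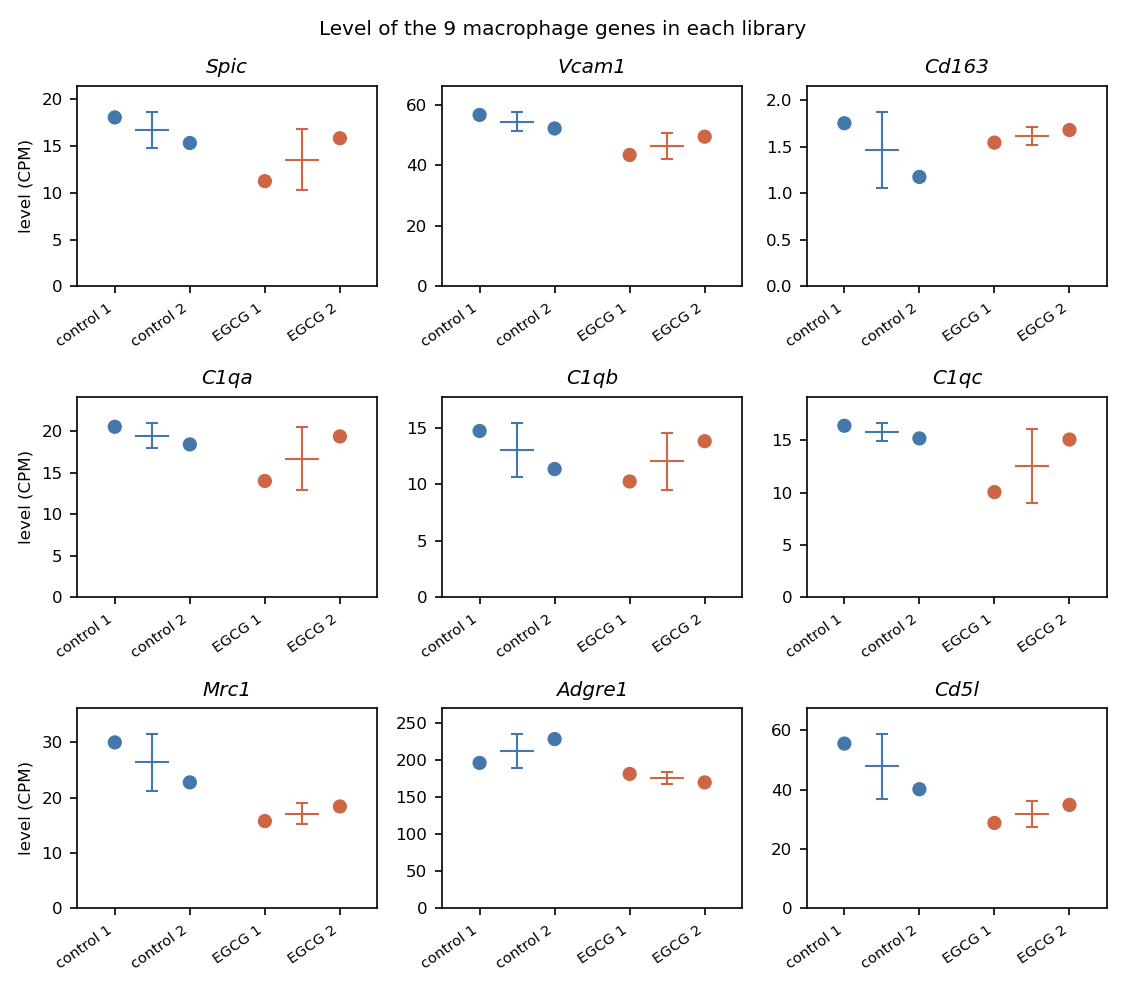
Level of each gene in CPM (counts divided by the scaled library size; vertical axes from 0) in control (blue) and EGCG (orange) libraries; points are libraries, and the bar between them is the group's mean with its SD (n = 2). Mrc1, Cd5l, Vcam1, C1qc and Adgre1 have both orange points below both blue points, and the other 4 genes overlap.

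Mrc1 and Cd5l showed the largest differences; where a pair of values is given for a group, replicate 1 stands first. Mrc1 (ENSMUSG00000026712, chr2:14229392-14332057 in GRCm38) was at 30.0 and 22.8 CPM in control replicates 1 and 2, and at 15.8 and 18.4 CPM in EGCG replicates 1 and 2. The EGCG libraries were thus at 59.8% and 69.8% of the control mean, and the log2 fold change was -0.63 (standard error 0.14). Cd5l (ENSMUSG00000015854, chr3:87357881-87371073), the gene of the secreted protein AIM, was at 55.6 and 40.2 CPM with control medium against 28.8 and 34.9 CPM with EGCG, a log2 fold change of -0.59 (standard error 0.14). In both genes the groups did not overlap, control replicate 1 was highest and EGCG replicate 1 was lowest. The control libraries of Cd5l nevertheless lay 0.47 apart on the log2 scale. With a library left out, the log2 fold change ran from -0.81 to -0.41 for Mrc1 and from -0.80 to -0.33 for Cd5l, and the value nearest 0 came without control replicate 1 in both.

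Vcam1 and Adgre1, which encode surface proteins, differed less. Vcam1 (ENSMUSG00000027962, chr3:116109949-116129688) was at 56.6 and 52.1 CPM with control medium against 43.3 and 49.4 CPM with EGCG, and the log2 fold change was -0.23 (standard error 0.09). Adgre1 (ENSMUSG00000004730, chr17:57358691-57483527) was at 196.0 and 228.2 CPM against 181.2 and 169.8 CPM, and the log2 fold change was -0.27 (standard error 0.08). With the length correction Vcam1, which has 8870 exonic bases, was at -0.15 (standard error 0.09) and Adgre1 at -0.29 (standard error 0.08). Neither gene had overlapping groups. Adgre1 was the only one of the 9 genes that was highest in control replicate 2 and lowest in EGCG replicate 2. The other 8 were highest in control replicate 1, and 7 of them were lowest in EGCG replicate 1. Adgre1 was also the most abundant, which limits its counting error most.

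Spic and the C1q genes were lowest in EGCG replicate 1. Spic (ENSMUSG00000004359, chr10:88674772-88685015) was at 18.1 and 15.3 CPM in the control libraries, at 11.3 CPM in EGCG replicate 1 and at 15.8 CPM in EGCG replicate 2. EGCG replicate 1 was at 67.4% of the control mean and EGCG replicate 2 at 94.9%, inside the range of the controls. The count of 204 in EGCG replicate 1 has an exact Poisson interval (95%) from 177.0 to 234.0, which covers counting error only, and the count of 283 in EGCG replicate 2 lies above it. The log2 fold change of Spic was -0.30 (standard error 0.16), and it was -0.074 without EGCG replicate 1 and -0.57 without EGCG replicate 2.

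The C1q genes lie side by side on the minus strand of chromosome 4 in GRCm38, with C1qb (ENSMUSG00000036905) from 136880129 to 136886187, C1qc (ENSMUSG00000036896) from 136889804 to 136893065 and C1qa (ENSMUSG00000036887) from 136895917 to 136898803. C1qa was at 20.5 and 18.4 CPM with control medium against 14.0 and 19.4 CPM with EGCG. C1qb was at 14.7 and 11.4 CPM against 10.3 and 13.8 CPM. C1qc was at 16.4 and 15.2 CPM against 10.0 and 15.1 CPM. All 3 were lowest in EGCG replicate 1, and EGCG replicate 2 lay within the control range for C1qa and C1qb and just below it for C1qc. The log2 fold changes were -0.22 for C1qa (standard error 0.14), -0.12 for C1qb (0.17) and -0.33 for C1qc (0.16). Without EGCG replicate 1 they were -0.0054 for C1qa and -0.064 for C1qc, and C1qb turned to 0.086. Without EGCG replicate 2 they were -0.47 for C1qa, -0.35 for C1qb and -0.65 for C1qc. Without control replicate 1 C1qb was at 0.088.
Their sum differed between libraries more than the share of C1qa in it. Together they had 943 and 803 counts with control medium against 622 and 862 with EGCG. C1qa took 39.8% and 41.0% of these counts with control medium and 40.8% and 40.1% with EGCG. The exact binomial interval (Clopper-Pearson, 95%) of that share in EGCG replicate 1, from 36.9% to 44.8%, held the shares of the other 3 libraries; it covers counting error only. The share of C1qb ran from 25.3% to 29.9% and that of C1qc from 29.3% to 33.7%. None of the C1q genes overlapped another annotated gene or shared a 31-base word with transcripts of other genes.

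Cd163 (ENSMUSG00000008845, chr6:124304656-124330527) was the exception in direction. It had 32 and 21 counts with control medium against 28 and 30 with EGCG, or 1.75 and 1.18 CPM against 1.54 and 1.68 CPM. The groups overlapped, and the log2 fold change of 0.14 had a standard error of 0.34. That was the largest standard error among the 9 genes, and Cd163 had the fewest counts. Leaving out control replicate 2 turned the log2 fold change to -0.12.

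**Figure D2:**
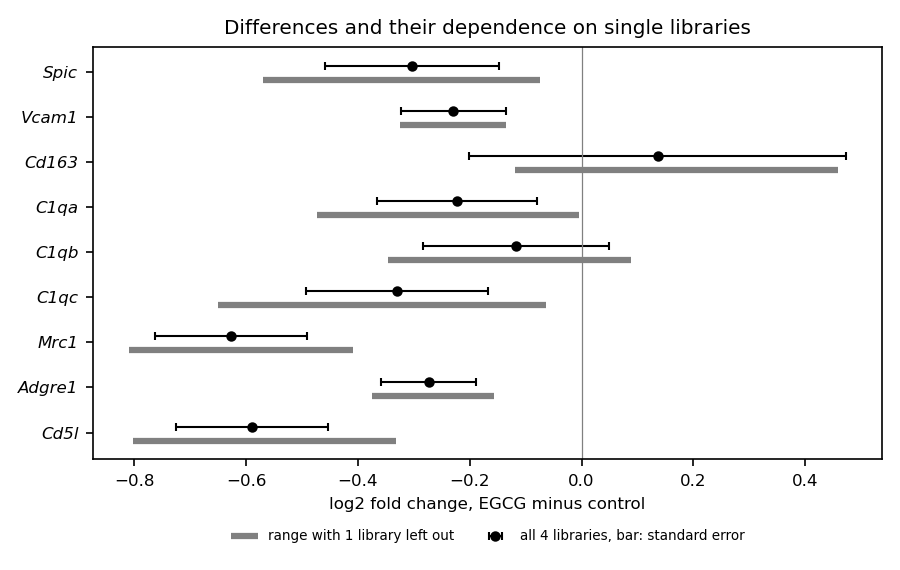
Log2 fold change of EGCG against control (horizontal axis; below 0 is lower with EGCG) with all 4 libraries (point, bar: standard error) and its range when each library in turn was left out (grey bar). The grey bars of Mrc1, Cd5l, Vcam1 and Adgre1 stay clear of 0, those of C1qb and Cd163 cross it, and that of C1qa ends at -0.0054.

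Libraries of the same group differed about as much as the groups did. Taking each gene's log2 CPM minus its own mean, the 9 genes averaged 0.26 in control replicate 1, 0.022 in control replicate 2, -0.29 in EGCG replicate 1 and 0.0058 in EGCG replicate 2. The means of control replicate 2 and EGCG replicate 2 were thus nearly level, with genes on either side. From control replicate 2 to EGCG replicate 2, 5 of the 9 were lower, among them Adgre1 (0.24 to -0.18) and Mrc1 (0.11 to -0.20), and the others were higher, among them Cd163 (-0.34 to 0.13) and C1qb (-0.13 to 0.15). Control replicate 1 was highest and EGCG replicate 1 lowest for 7 of the 9 genes, namely all but Cd163 and Adgre1, against 11.3% of all tested genes. The choice of genes lower with EGCG favors this pattern, so nothing is read from that count. Between the control libraries, 8 of the 9 genes were higher in replicate 1, against 50.3% of tested genes. Between the EGCG libraries, 8 of the 9 were higher in replicate 2, against 51.3%. The median log2 fold change of the 9 genes was -0.074 without EGCG replicate 1 and -0.47 without EGCG replicate 2.

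**Figure D3:**
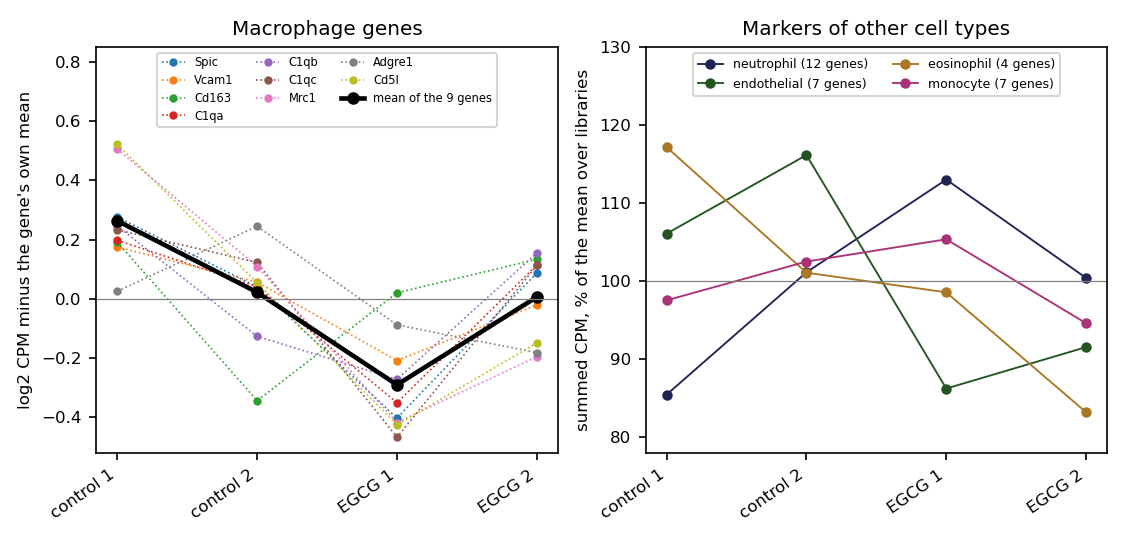
Left, log2 CPM of each gene minus its own mean in each library (dotted) with the mean of the 9 genes (black); right, summed CPM of marker lists of other cell types as a percentage of their mean over the libraries. Lines join the values of a gene or list and imply no order of libraries; the black line is level in control replicate 2 and EGCG replicate 2, and the neutrophil sum is lowest in control replicate 1 and highest in EGCG replicate 1.

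Markers of other cells are given beside these values, and their part in them was not tested. By edgeR's quasi-likelihood test 0 of the 55 tested markers of other cells had an adjusted p under 0.05, and 13 had an unadjusted p under 0.05 (12.2% of all tested genes), 10 lower and 3 higher. DESeq2 also called 0. The 12 neutrophil markers summed to 64218 and 75992 CPM with control medium and to 84923 and 75454 CPM with EGCG. This sum was lowest where the macrophage mean was highest and highest where it was lowest. Its largest parts were S100a8 (14461 and 18163 CPM against 22838 and 19477) and S100a9 (22455 and 28293 CPM against 31668 and 27007). Of the 12 markers 8 were higher and 4 lower with EGCG (median log2 fold change 0.11). Not all followed the sum, since Ltf was highest in control replicate 1. Beside Vcam1 and Mrc1, the 6 tested endothelial markers were all lower with EGCG (median log2 fold change -0.62), and 4 of them had an unadjusted p under 0.05 (lower in 7.02% of all tested genes). The 7 endothelial genes summed to 120.4 and 131.8 CPM against 97.8 and 103.9 CPM, and of the defining genes Cdh5 had 126 and 114 counts against 59 and 72 counts. Emcn, another endothelial marker, was close to the floor, with 5 counts or fewer in each library. Beside Vcam1, the 7 stromal markers were scarce, with sums of 3.89 and 1.62 CPM with control medium against 1.38 and 1.68 CPM with EGCG. Of these only Pdgfrb was tested, with 27 and 10 counts against 15 and 12 (log2 fold change -0.44, standard error 0.48). The collagen genes Col1a1, Col1a2 and Col3a1 had 9, 14 and 11 counts in control replicate 1 and at most 4 in any other library, while Pdgfra had 4 and 10 counts against 5 and 5, Cxcl12 had 5 and 6 against 3 and 4, and Dcn had at most 1. Beside Adgre1, the 4 eosinophil markers (Siglecf, Epx, Prg2 and Ccr3) were all lower with EGCG, with sums of 1061 and 915.3 CPM against 892.5 and 753.4 CPM. The 7 monocyte markers had a median of -0.0021 and sums from 688.5 to 766.7 CPM. The median log2 fold change was -0.18 for 7 dendritic cell markers, 0.10 for 5 B cell markers, 0.028 for 4 tested T and NK cell markers, 0.11 for 5 tested erythroid markers and -0.08 for 4 platelet markers.

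Genes that the choice did not use were taken from lists of red pulp, marginal zone and other tissue macrophages, 40 genes in all, and all 40 were tested. The lists were drawn up with earlier results of these data known, so they are not an independent check. In the edgeR quasi-likelihood test, with p values adjusted over all tested genes, 1 of the 40 fell (Lrp1) and 0 rose, against 0.150% of tested genes in either direction. At an unadjusted p under 0.05 there were 7 lower and 3 higher genes, against 12.2% of tested genes. The median log2 fold change of the 40 genes was -0.08, with 28 lower and 12 higher, and the groups did not overlap for 37.5% of them, against 42.7% of tested genes. Control replicate 1 was highest and EGCG replicate 1 lowest in 11 of the 40, against 11.3% of all tested genes, a pattern looked for after the values of the 9 genes were seen.
Lrp1 encodes a large endocytic receptor that, among other cargo, clears heme-hemopexin complexes and apoptotic cells. It had 5960 and 4007 counts with control medium against 2776 and 3134 with EGCG, with no overlap. Its log2 fold change was -0.75 (standard error 0.13, adjusted p of 0.0427 by edgeR's quasi-likelihood test). Across all tested genes the log2 fold change went with exonic length (Spearman correlation -0.29, a description, since genes are not independent replicates), and Lrp1 is long, with 17717 exonic bases. With the length correction Lrp1 was at -0.58 with an adjusted p of 0.0624 by edgeR. Over 10 alternatives, this one included, the adjusted p of Lrp1 ran from 0.00234 to 0.593 and was under 0.05 in 5. Without control replicate 1 the log2 fold change was -0.44.

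Of the 20 other red pulp genes, 12 were lower and 8 higher, with a median of -0.04. Itgad, which encodes the integrin CD11d of red pulp macrophages, had 310 and 279 counts with control medium against 167 and 277 with EGCG (log2 fold change -0.40, standard error 0.18, adjusted p of 0.403 by edgeR). Among genes of heme and iron handling, the log2 fold change was -0.20 for Hmox1, which encodes the heme-degrading enzyme heme oxygenase 1 (standard error 0.09, adjusted p of 0.405 by edgeR). It was 0.20 for Slc40a1, the iron exporter ferroportin (standard error 0.08, adjusted p of 0.339), and 0.21 for Ftl1, ferritin light chain (standard error 0.08, adjusted p of 0.307). Ferritin genes have processed pseudogenes that can share their reads. The most abundant genes of the list had values of 0.17 for Fth1, ferritin heavy chain, and -0.06 for Sirpa, the receptor of CD47.

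The 3 marginal zone genes were low in counts, and all had overlapping groups and negative values. Siglec1, which encodes CD169 of metallophilic macrophages, had 89 and 118 counts with control medium against 65 and 95 with EGCG (log2 fold change -0.37, standard error 0.23). Marco, a scavenger receptor of the marginal zone, had 38 and 22 counts against 26 and 22. Cd209b stood at a log2 fold change of -0.41 (standard error 0.48).

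Among 17 genes of tissue macrophages at large, 13 were lower and 4 higher (median -0.18). Mertk, a receptor for the uptake of apoptotic cells, had 291 and 173 counts with control medium against 132 and 144 with EGCG, a log2 fold change of -0.74 (standard error 0.20, adjusted p of 0.167 by edgeR). Axl, a related receptor, had 1011 and 804 counts against 534 and 838, so that the groups overlapped (log2 fold change -0.40, standard error 0.16, adjusted p of 0.350 by edgeR). The scavenger receptor gene Msr1 had a log2 fold change of -0.30 (standard error 0.08, adjusted p of 0.162 by edgeR) with no overlap. The 4 genes with positive values were Ctsd, cathepsin D of the lysosome, at 0.25 (standard error 0.08, adjusted p of 0.230 by edgeR), Lamp2 at 0.12, Cd14 at 0.09 and Timd4 at 0.05. Csf1r, the receptor that keeps macrophages alive, was at -0.14 (standard error 0.08).

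**Figure D4:**
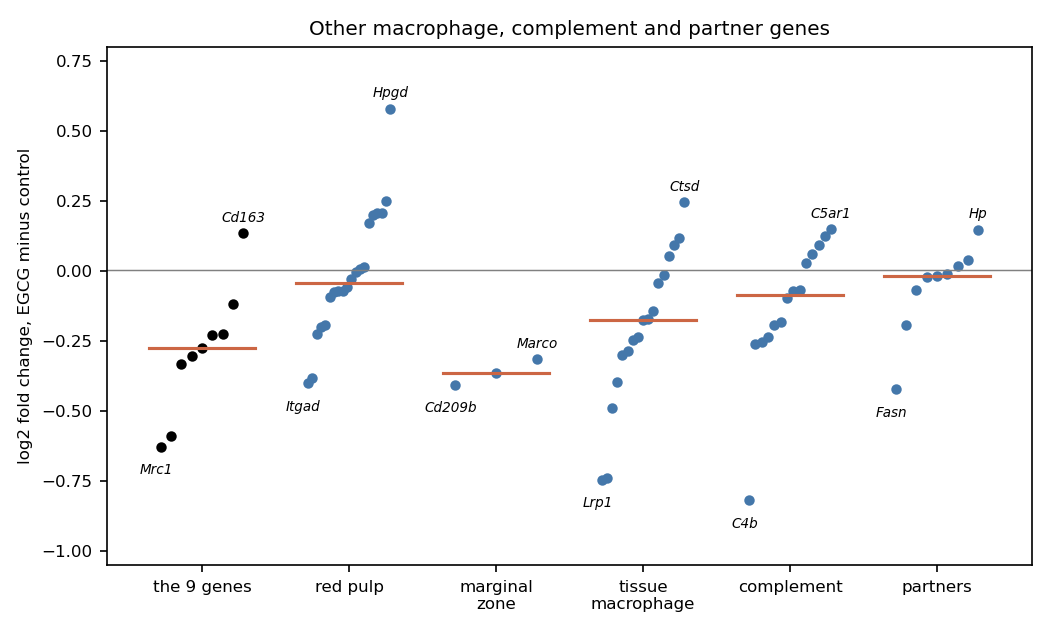
Log2 fold change of EGCG against control (vertical axis) for the 9 genes (black) and for the tested genes of each list (blue); orange lines are medians, the grey line is the median of all tested genes, and the lowest and highest gene of each list are named. Medians run from -0.37 (marginal zone) to -0.02 (partners), and of all points Lrp1 alone passed the test at an adjusted p under 0.05.

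C1q acts with the other complement genes, and the receptors and ligands of the 9 genes' products were also listed. Of 19 complement genes 14 were tested, of which 9 were lower and 5 higher (median -0.09). Of 10 partner genes 9 were tested, of which 6 were lower and 3 higher (median -0.02). By edgeR's quasi-likelihood test, 0 of these 23 genes passed an adjusted p of 0.05, 4 were lower at an unadjusted p under 0.05 (7.02% of all tested genes) and 0 were higher, and DESeq2 also called 0. C4b, which encodes the complement component cleaved by the C1 complex, had 262 and 164 counts with control medium against 109 and 131 with EGCG (log2 fold change -0.82, standard error 0.20, adjusted p of 0.133 by edgeR). C4b has a near-identical neighbor in the mouse, so its counts are uncertain. C3, the central component, had a log2 fold change of -0.26 (standard error 0.08, adjusted p of 0.217 by edgeR), and Cd93, once described as a C1q receptor, of -0.24 (standard error 0.08, adjusted p of 0.251). The proteases that join C1q in the C1 complex were scarce: C1ra had 65 and 57 counts against 53 and 49, and C1s1 had 4 counts or fewer in each library. Itgam, which encodes the MDSC marker CD11b, the alpha chain of complement receptor 3, had a log2 fold change of 0.13 (standard error 0.08).
Among the partners, Fasn, the fatty acid synthase that CD5L inhibits, had 1353 and 1155 counts with control medium against 887 and 977 with EGCG, a log2 fold change of -0.42 (standard error 0.09, adjusted p of 0.0902 by edgeR). Itga4 and Itgb1, the chains of the VCAM-1 receptor VLA-4, had log2 fold changes of -0.07 and -0.0090. Hp, haptoglobin, whose complex with hemoglobin is the ligand of CD163, was at 0.15 (standard error 0.08), and Ptprc was at -0.02.

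The genes whose pattern over the 4 libraries was most like the mean of the 9 were not in the macrophage lists used here. Likeness was the Euclidean distance between centred log2 CPM profiles, over 13118 genes with a mean of at least 1 CPM. The nearest were Heatr1 (distance 0.022), a ribosome biogenesis gene, Lima1 (0.026), an actin-binding protein gene, and Clec1b (0.030), which encodes the receptor CLEC-2. Next came Aldoc (0.031), a glycolytic enzyme gene, and Rad54l2 (0.039). Heatr1, for example, had 695 and 569 counts with control medium against 472 and 561 with EGCG. The 9 genes themselves lay at distances from 0.13 (Vcam1) to 0.50 (Cd163) from their mean, with a median of 0.23, and 793 other genes (6.05%) lay nearer than that median. With 4 libraries, many genes share such a profile.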

How the data were processed

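RNA from 2 control and 2 EGCG libraries was measured. The authors aligned reads to GRCm38 with STAR 2.6.0c, counted them per gene with featureCounts 1.6.2 (Ensembl release 91, strand not used), and deposited whole-number counts without normalization. There were 0 columns of other samples. The 9 genes and all lists were chosen with earlier results of these data known. Genes with low counts were removed with edgeR 4.0.16 (filterByExpr, minimum count of 10), library sizes were TMM-scaled, and the groups were compared by the quasi-likelihood test in its legacy form, with Benjamini-Hochberg adjustment over 14682 genes and a threshold of 0.05. The standard error is the log2 fold change divided by the square root of F. Log2 CPM used a prior count of 2. The test was first run on simulated data. With 2 libraries a group, single values cannot be tested by permutation.

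Positions and exonic lengths came from GENCODE M21 (GRCm38), and promoter sequences from RefSeq. Itgam stands on 2 identifiers, of which the one with more counts was used. Up to 5.79% of the 31-base words of a gene among the 9 (Spic) occurred in transcripts of other genes. Exons of Vcam1 overlap another gene over 0.688% of their length. Named genes were the 9, genes of each list with an unadjusted p under 0.05, its 2 most abundant genes and the 5 genes nearest in pattern; others named were chosen after their values were seen. Alternatives were other filters, scalings, edgeR forms, DESeq2 1.42.0, a length correction (loess with a span of 0.4), a replicate block, and leaving out each library. For 1 listed gene no value is given, but it was kept in the tallies and medians of its list.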

Additional observations from a re-analysis of the deposited data

How the results depend on the processing

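The median log2 fold change of the 9 genes stayed between -0.31 and -0.27 over the 10 alternatives with all libraries, and the direction of each of the 9 was the same in all 10. With a library left out the median ran from -0.47 to -0.074. The number of genes called over the whole table was 22. It was 0 without a filter, 151 with library size only, 11 with upper-quartile scaling, 63 with the robust fit, 64 with DESeq2 and 8 with the length correction, and 77 to 354 with a library left out. Of the 40 other macrophage genes, 1 was called, and 0 without a filter, with upper-quartile scaling, with the robust fit, with DESeq2 or with the length correction, and 1 to 6 with a library left out. Of the complement and partner genes, 0 were called, 2 with library size only and 1 with the robust fit, and 0 to 2 with a library left out. The causes were not tested. The adjusted p of Lrp1 in the alternatives was set out after it was seen to pass. Across genes, the difference between the control libraries and that between the EGCG libraries had a correlation of 0.034. Counting error lowers such a correlation, so it cannot decide if same-numbered libraries share an origin. With the replicate block 30 genes were called, 1 of them among the 40, and the median of the 9 genes was -0.27. The 2 libraries of a group limit every comparison, and Cd163, with 21 to 32 counts, had the fewest reads of the 9.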
